A study of Drosophila melanogaster with 6 samples.

Results

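The Hippo pathway and its Fat/Dachsous branch were followed through 10 genes: yki, hpo, wts, ex, Mer, kibra, ft, ds, fj and d. They were chosen by name from the 14239 genes of the expression table. Of these, 9 were found by symbol, and kibra is listed under its synonym CG33967. All 10 had a mean FPKM of at least 1 and belong to the 8402 genes counted here.

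The ablated group held 3 replicates of blastema cells with the genotype nub-GFP/+; rn-Gal4, GAL80ts, UAS-rpr/+, and the control group held 3 replicates of wing pouch cells that differed by the absence of UAS-rpr. Larvae of both groups were reared at 18 °C and held at 30 °C for 24 h early in the third larval instar, and discs were taken after 24 h of recovery. In the ablated larvae the warm period released rn-Gal4, which is active in most of the pouch, to express the pro-apoptotic gene rpr. GFP from an insertion at nub marked the cells that were sorted, and each replicate pooled discs and RNA from several days of dissection. Expression is given as FPKM, sequenced fragments scaled by transcript length and library size, and each FPKM is the authors' value for a group.

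Hippo signaling is a growth control pathway of the imaginal discs. The kinase Hippo (Hpo) activates the kinase Warts (Wts), which phosphorylates the coactivator Yorkie (Yki) and keeps it out of the nucleus. Unphosphorylated Yki acts with the DNA-binding protein Scalloped (Sd) on genes for growth and survival. Expanded (Ex), Merlin (Mer) and Kibra assemble at the apical cortex and promote activity of the kinases. The large cadherin Fat (Ft) is the receptor of a second input, with the cadherin Dachsous (Ds) as its ligand, the Golgi kinase Four-jointed (Fj) as a modifier of both, and the unconventional myosin Dachs (D) as the effector that Ft restrains.

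All 10 genes were expressed in both groups, and none of the 10 changed by much more than 1.5-fold. In the ablated group ds had 1.52 times and kibra 1.51 times the control FPKM, and these were the 2 members past a threshold of 1.5-fold. The other 8 members lay between a log2 fold change of -0.30 for hpo and 0.46 for wts. The count of 2 in 10 stands beside 14.8% of all counted genes that were higher by at least 1.5-fold. No member was lower by 1.5-fold, beside 9.32% of all counted genes. At the log2 threshold of 1.3 used in the study no member was called in either direction, beside 4.28% of all counted genes for higher and 1.95% for lower. The study joined this threshold with its own Cuffdiff test, which was not used here, so these shares do not describe its gene lists. With 1 value per group no difference can be set against the spread between replicates, so each call states the size of a ratio and not its certainty.

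The members lay mostly on one side of zero. Of the 10, 8 had a log2 fold change above 0, and their median was 0.25. Over all counted genes 47.0% lay above 0 and the median was -0.04. The 2 members below 0 were hpo and yki, a kinase at the top of the cassette and the coactivator at its end.

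**Figure D1:**
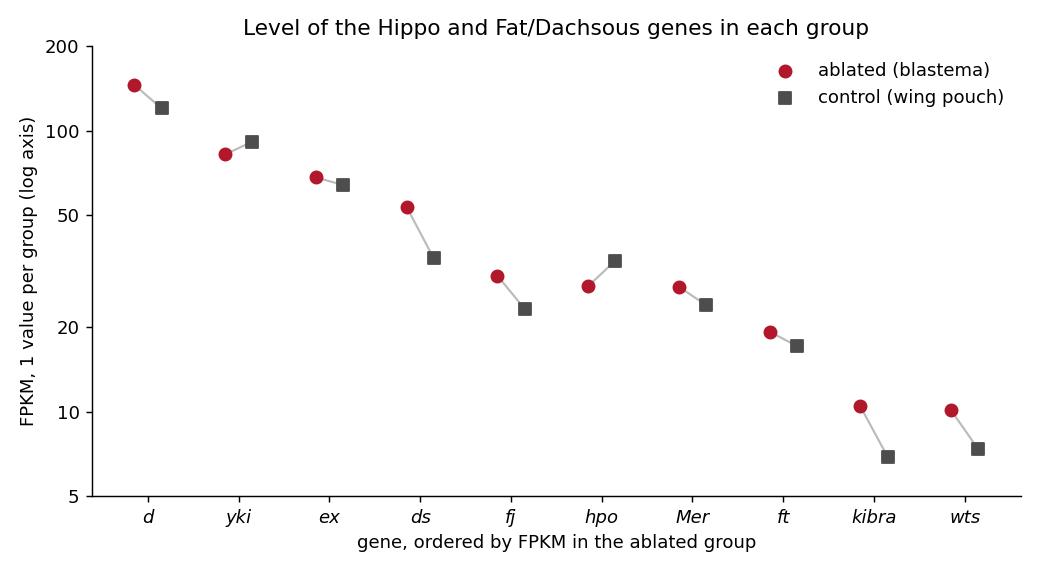
FPKM of the 10 genes on a log axis, with 1 value per group: circles for the ablated group and squares for the control group, joined for each gene. The levels run between 10.1 FPKM for wts and 145 FPKM for d in the ablated group, and circle and square lie close together for every gene, farthest apart for ds and kibra.

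Within the Fat/Dachsous branch the ligand gene was the one past the threshold. The gene ds (chromosome 2L, 640021 to 714968, on the release 5 genome used by the authors, as are all positions here) had 53.5 FPKM in the ablated group and 35.1 FPKM in the control group, a log2 fold change of 0.61. By the size of its rise it stood at number 1188 of the 8402 counted genes. Its locus holds no other gene. In an undamaged wing disc ds is expressed most strongly in the proximal part of the wing field, towards the hinge.

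The receptor gene ft (chromosome 2L, 4198402 to 4217852) had 19.3 FPKM in the ablated group and 17.1 FPKM in the control group, a log2 fold change of 0.17. The ratio of ds to ft FPKM within a group, which no scaling of the libraries can move, was therefore 2.78 in the ablated group and 2.05 in the control group. Both values describe messenger RNA only, and binding of Ds to Ft also depends on phosphorylation of their cadherin domains by Fj.

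The gene fj (chromosome 2R, 14120268 to 14123816) had 30.45 FPKM in the ablated group and 23.2 FPKM in the control group. Its log2 fold change of 0.39 lies under the threshold. In undamaged discs fj runs opposite to ds, with its highest level in the distal pouch. Here both genes were higher in the ablated group, and the ratio of fj to ds was 0.57 in the ablated group and 0.66 in the control group.

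Dachs is the myosin that accumulates at the membrane where Ft is inactive, and there it lowers Warts. Its gene d (chromosome 2L, 8466830 to 8488671) was the most abundant member in both groups, with 145 FPKM in the ablated group and 119.9 FPKM in the control group, a log2 fold change of 0.28. The locus also holds CheA29a on the same strand, at 4.10 FPKM in the ablated group and 1.98 FPKM in the control group, so the division of reads between the genes is uncertain.

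The 3 upstream genes of the apical cortex had different log2 fold changes. The gene kibra (chromosome 3R, 10524252 to 10549978), which encodes a WW domain scaffold, had 10.4 FPKM in the ablated group and 6.92 FPKM in the control group. Its log2 fold change of 0.59 exceeds the threshold of 0.58 by very little, and with 1 FPKM added to both groups it was 0.53 and no longer past it.

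Mer (chromosome X, 19584627 to 19587531), the fly homolog of the tumor suppressor NF2, had 27.8 FPKM in the ablated group and 23.9 FPKM in the control group, a log2 fold change of 0.22. The FERM domain gene ex (chromosome 2L, 431253 to 453023) had 68.1 FPKM in the ablated group and 64.0 FPKM in the control group. Its log2 fold change of 0.09 was the smallest in size among the 10 members. The locus of ex also holds crq on the opposite strand, at 19.99 FPKM in the ablated group and 25.1 FPKM in the control group. The libraries were made with a stranded kit, but the sources used here do not say if Cuffdiff counted by strand.

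All of ex, Mer, kibra and fj are known as genes that Yki activates, the first 3 as a negative feedback. The ratio of ex to kibra was 6.53 in the ablated group and 9.26 in the control group. That of ex to Mer was 2.45 in the ablated group and 2.68 in the control group. Without replicate values, these differences between the groups cannot be set against the spread of replicates. No ratio of fj to ex, Mer or kibra was computed. Whether these genes moved by a common factor was therefore not tested.

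The kinase genes had log2 fold changes of opposite sign. The gene wts (chromosome 3R, 26615379 to 26632341) had 10.1 FPKM in the ablated group and 7.34 FPKM in the control group, a log2 fold change of 0.46. The gene hpo (chromosome 2R, 15381801 to 15384372) had 27.95 FPKM in the ablated group and 34.4 FPKM in the control group, a log2 fold change of -0.30. The ratio of hpo to wts was 2.76 in the ablated group and 4.69 in the control group. This log2 difference of -0.76, before any correction for length, was the largest among the 9 ratios between members that were computed. The ratios were not ranked after such a correction. The locus of hpo is 2.57 kb long and that of wts 17.0 kb. With the median of genes of similar locus length subtracted, hpo had -0.13 and wts 0.30 on the log2 scale. With transcript length in place of locus length, hpo had -0.27 and wts 0.23.

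The coactivator gene yki (chromosome 2R, 19953498 to 19956008) had 82.2 FPKM in the ablated group and 91.3 FPKM in the control group, a log2 fold change of -0.15. This lies below the median of all counted genes. It was 0.14 when the median of genes with a similar mean FPKM was taken away, so its place relative to other genes depends on which genes it is set against. The ratio of yki to wts, a ratio of the target of phosphorylation to its kinase at the level of messenger RNA, was 8.13 in the ablated group and 12.4 in the control group. That of yki to hpo was 2.94 in the ablated group and 2.65 in the control group. The ratios were chosen after the values were seen, and none was corrected for gene length. Pathway activity rests on phosphorylation and on where the proteins lie in the cell, which these values do not measure.

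The order of the levels was almost the same in both groups. In the ablated group it ran d, yki, ex, ds, fj, hpo, Mer, ft, kibra and wts. The first 4 places and that of ft were the same in the control group, where hpo and Mer stood ahead of fj, and wts ahead of kibra. Whether neighbours in this order differ beyond the spread of replicates cannot be said from 1 value per group. Among all counted genes d stood at percentile 93.0 of expression in the ablated group and 89.7 in the control group, whereas wts stood at percentile 35.4 in the ablated group and 30.1 in the control group.

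**Figure D2:**
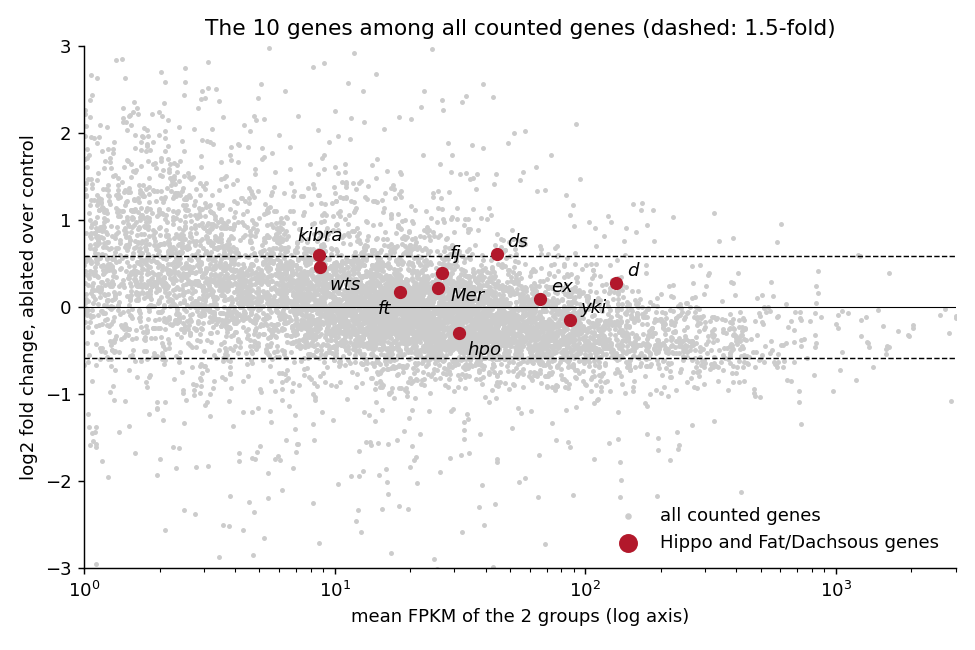
Log2 fold change of ablated over control against mean FPKM (log axis) for all counted genes (grey) and the 10 members (red, named). Dashed lines mark 1.5-fold, and 165 counted genes lie outside the plotted range. Only ds and kibra touch the upper line, and all 10 lie within the cloud of other genes.

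Other genes of the pathway were taken from 4 lists that hold 33 genes, all of them counted. Of the 33, 2 were higher and 1 was lower by at least 1.5-fold, which is 6.06% and 3.03% of the lists beside the 14.8% and 9.32% of all counted genes. Their median log2 fold change was 0.12, and 21 of the 33 lay above 0. No gene of these lists was past the log2 threshold of 1.3.

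The largest change in the Fat/Dachsous branch was that of lft, listed as CG13139 (chromosome 2L, 10364465 to 10366410). It encodes Lowfat, a protein that binds the intracellular domains of Ft and Ds and raises their levels. Its FPKM was 111 in the ablated group and 243 in the control group, a log2 fold change of -1.14, or 2.20-fold lower. Ordered by the size of the fall it was number 195 of the 8402 counted genes, and no other gene shares its locus. The ratio of lft to ft was 5.74 in the ablated group and 14.2 in the control group, and that of lft to ds was 2.07 in the ablated group and 6.94 in the control group.

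The other 5 genes of this list were not past the threshold. The palmitoyltransferase gene app, whose product helps to place D at the membrane, had 13.7 FPKM in the ablated group and 9.72 FPKM in the control group, a log2 fold change of 0.50. Dlish, listed as CG10933, encodes a partner of D and had a log2 fold change of -0.30. The values of the casein kinase gene dco (0.07), the F-box gene Fbxl7 (0.16) and the corepressor gene Gug (0.33) lay between them on the log2 scale.

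None of the 5 other kinase and adaptor genes was past 1.5-fold. The adaptor mats, a partner of Wts, had 49.6 FPKM in the ablated group and 69.2 FPKM in the control group, a log2 fold change of -0.48. The Hpo partner sav had -0.15 on the same scale, near yki. The kinase genes Tao (listed as Tao-1), msn and hppy, whose products can activate Hpo or Wts, had values of 0.21, 0.18 and 0.28.

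Among the 8 genes for partners of Yki, sd had 95.02 FPKM in the ablated group and 87.6 FPKM in the control group, a log2 fold change of 0.12. The ratio of yki to sd was 0.865 in the ablated group and 1.04 in the control group. The gene Tgi, listed as CG10741, encodes a protein that binds Sd in place of Yki and had a log2 fold change of 0.39. The cofactor genes Wbp2 and mask had 0.06 and -0.01. The 14-3-3 genes, whose products hold phosphorylated Yki in the cytoplasm, had -0.11 (14-3-3epsilon) and -0.16 (14-3-3zeta).

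The one gene of this list past the threshold was tsh, which encodes a zinc finger protein that can act with Yki and hth. Its FPKM was 45.6 in the ablated group and 22.7 in the control group, a log2 fold change of 1.01. It is also a marker of the hinge and the more proximal disc. Its partner gene hth had a log2 fold change of 0.36.

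Of 14 further upstream regulators, Sik2 alone was past the threshold. It is listed as CG4290 and encodes a kinase that inhibits Hippo signaling. Its FPKM was 2.10 in the ablated group and 1.04 in the control group, a log2 fold change of 1.02 at a low level, and the locus holds CG4313 on the opposite strand, at 4.44 FPKM in the ablated group and 2.80 FPKM in the control group. Set against genes of similar mean FPKM, Sik2 had 0.53 and was not past the threshold. The junction gene pyd (0.50) and the kinase gene par-1 (0.47) came next. The LIM domain genes jub and Zyx, whose products restrain Warts at junctions, had -0.31 and -0.26, close to the lowest value of the list, that of Schip1, listed as CG5375 (-0.33), and the apical determinant gene crb had 0.16.

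A list of 15 genes known as targets of Yki held 4 of the members. The microRNA gene ban is listed at 0 in both groups and is not counted, which leaves 14. Of these, 5 were higher by at least 1.5-fold, which is 35.7% beside the 14.8% of all counted genes, and none was lower. The 5 genes were vn, dm, CycE, wg and kibra. The median log2 fold change of the list was 0.34. Set against genes of similar locus length, 2 of the 14 (vn and dm) were higher by at least 1.5-fold, which is 14.3% beside 14.8% of all counted genes. The share past the threshold thus no longer stood above the background, which does not say where the list median lay under this setting. With transcript length in place of locus length the 2 genes were vn and wg, beside 15.7% of all genes.

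The EGFR ligand gene vn had 8.58 FPKM in the ablated group and 4.18 FPKM in the control group, a log2 fold change of 1.04. The growth regulator gene dm, which encodes Myc, had a log2 fold change of 0.82. The S phase cyclin gene CycE had 16.6 FPKM in the ablated group and 10.2 FPKM in the control group, a log2 fold change of 0.70. The ligand gene wg had 26.2 FPKM in the ablated group and 16.4 FPKM in the control group, a log2 fold change of 0.67. These genes have several known inputs in the disc, and the values do not show which of them acted.

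The other targets did not follow them past the threshold. The cell cycle factor gene E2f, at a log2 fold change of 0.57, stayed just below it. The gene th, which encodes the apoptosis inhibitor Diap1 and is a much used readout of Yki, had 193 FPKM in the ablated group and 244 FPKM in the control group, a log2 fold change of -0.34. The glypican genes dally (0.30) and dlp (-0.10) and the Notch ligand gene Ser (0.09) were close to the members ex and Mer in size.

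**Figure D3:**
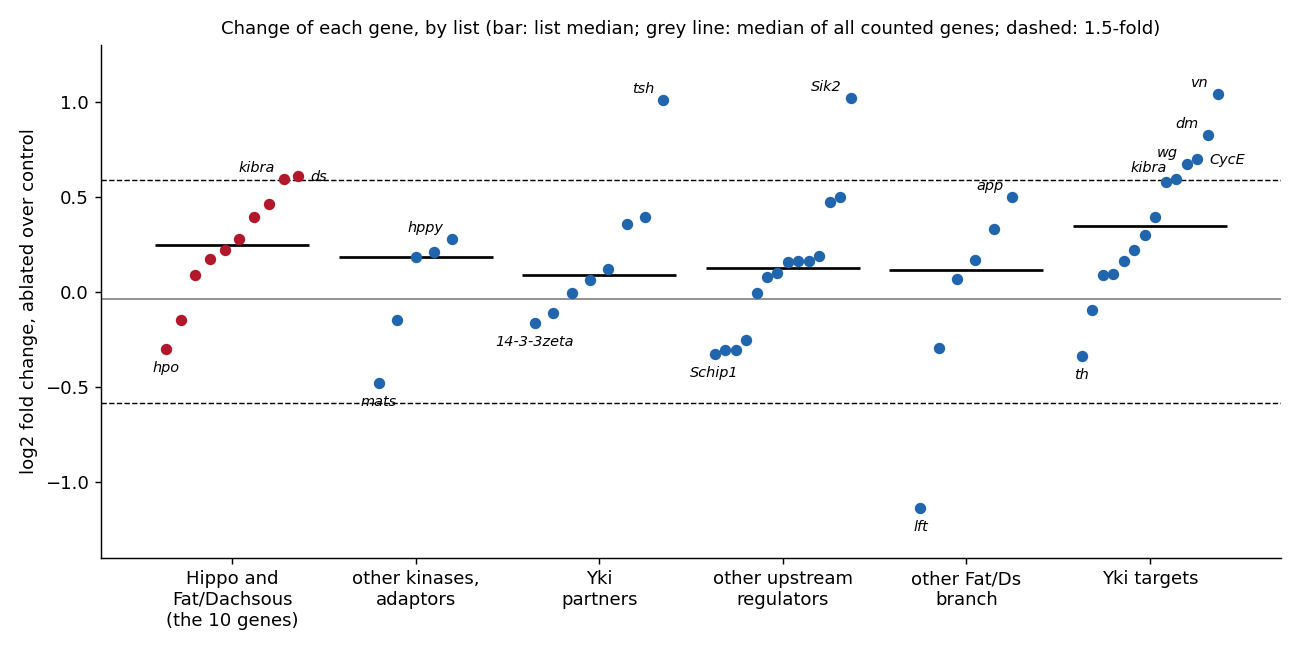
Log2 fold change of ablated over control for each counted gene of the 6 lists, with the list median as a bar, the median of all counted genes as a grey line and 1.5-fold as dashed lines. Genes past 1.5-fold and the ends of each list are named: lft at -1.14 is the lowest and vn at 1.04 the highest.

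Whole-series facts bear on these small values. Summed over all genes, the FPKM came to 889990 in the ablated group and 1081834 in the control group, so rescaling both to the same sum adds 0.28 to every log2 fold change and moves the median of all counted genes to 0.24. Read against that median, the members keep their distances. With this rescaling wts (0.74) and fj (0.67) also passed 1.5-fold, and 4 of 10 members were higher by at least 1.5-fold, beside 25.8% of all counted genes under the same rescaling. Over all genes the share of calls that were higher was 61.4% as deposited, 87.1% with equal sums and 73.0% once each gene was set against genes with transcripts of like length. Where the mean FPKM had to reach 5 it was 44.4%, with 527 higher and 659 lower.

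The cells of the groups also differed in their marker genes. The pouch markers nub, rn and vg were all lower by at least 1.5-fold, beside 9.32% of all counted genes. They summed to 112.5 FPKM in the ablated group and 191.9 FPKM in the control group. With both groups rescaled to the same FPKM sum, their log2 fold changes were -0.51, -0.43 and -0.48. None of these passed 1.5-fold, beside 3.82% of all counted genes that were lower. Of 4 hinge markers, zfh2, tsh and Sox15 were higher by at least 1.5-fold, and the 4 summed to 318 FPKM in the ablated group and 167 FPKM in the control group. Of 5 notum markers, eyg, caup, pnr and tup were higher by at least 1.5-fold, and ara had a log2 fold change of -0.19. The 5 summed to 61.2 FPKM in the ablated group and 44.1 FPKM in the control group. Over all counted genes 14.8% were higher by at least 1.5-fold. Of 6 myoblast markers 4 could be counted, and all 4 were higher. Of these, twi, Him and stumps were under 1 FPKM in the control group and passed the filter only through the ablated group. Their calls therefore follow in part from the filter. The 6 summed to 34.9 FPKM in the ablated group and 6.005 FPKM in the control group, where Mef2 alone had 4.41 FPKM. The 5 hemocyte markers summed to 2.01 FPKM in the ablated group and 1.17 FPKM in the control group, with NimC1 listed at 0 in the control group. Only srp among them reached the filter, with 1.48 FPKM in the ablated group and 1.07 FPKM in the control group. The peripodial markers Ubx, which was under the filter, and odd summed to 5.83 FPKM in the ablated group and 2.735 FPKM in the control group. Their part in the values of ds, kibra or lft was not tested, and in bulk samples a changed share of cells and a changed amount of RNA per cell cannot be told apart. The gene rpr itself had 55.2 FPKM in the ablated group and 70.3 FPKM in the control group at this time after the shift, and the JNK target puc had a log2 fold change of 1.35.

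**Figure D4:**
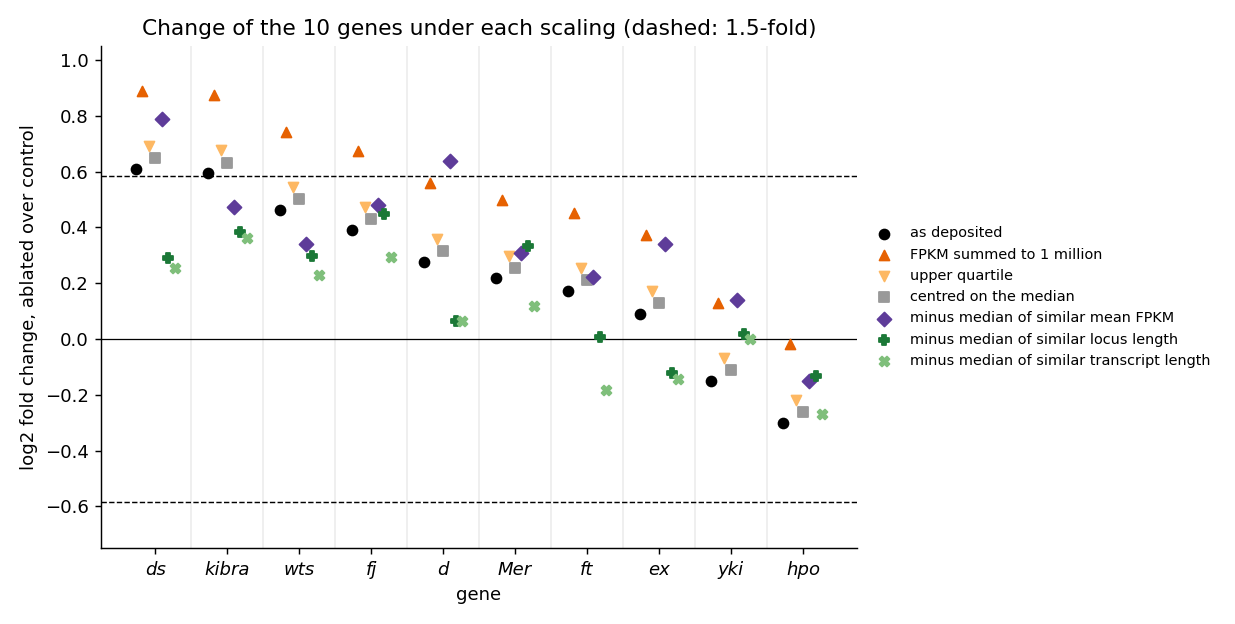
Log2 fold change of ablated over control for the 10 members under 7 scalings, with 1.5-fold as dashed lines. The value of ds runs between 0.26 and 0.89, and yki, ex and ft change sign between scalings.

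Both expression level and locus length moved with the fold change over the whole table. In 20 bins of counted genes by mean FPKM, the median log2 fold change was 0.53 in the lowest bin and -0.33 in the highest. It was 0.12 in the bin of kibra and wts and -0.36 in that of d and lft. Locus length is that of the whole locus, also where genes share it, as d and ex do. In 20 equally filled bins of counted genes by locus length, the median log2 fold change was -0.19 in the bin of shortest loci (median 635 bp) and 0.32 in the bin of longest loci (median 50640 bp). Among the members hpo and yki lie in the shortest loci, of 2.57 and 2.51 kb, and ds lies in the longest, of 74.9 kb. The loci of fj and Mer are also short, 3.55 and 2.90 kb, and their log2 fold changes exceeded the median of their bins by 0.45 and 0.33. With bins by the length of the longest transcript, fj exceeded it by 0.29 and Mer by 0.12.

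With the median of the genes in its locus length bin subtracted, ds had 0.29 and kibra 0.38 on the log2 scale, so that no member passed 1.5-fold, and the median of the 10 was 0.18. With the length of the longest transcript in place of the locus, ds had 0.26 and kibra 0.36, the values of ex (-0.14) and ft (-0.18) were below 0, and the median was 0.09. The value of lft, whose locus is 1.95 kb long, stayed past the threshold in both cases. Both subtractions were added after the values were seen. What produces the relations to length and to expression level was not tested.

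**Figure D5:**
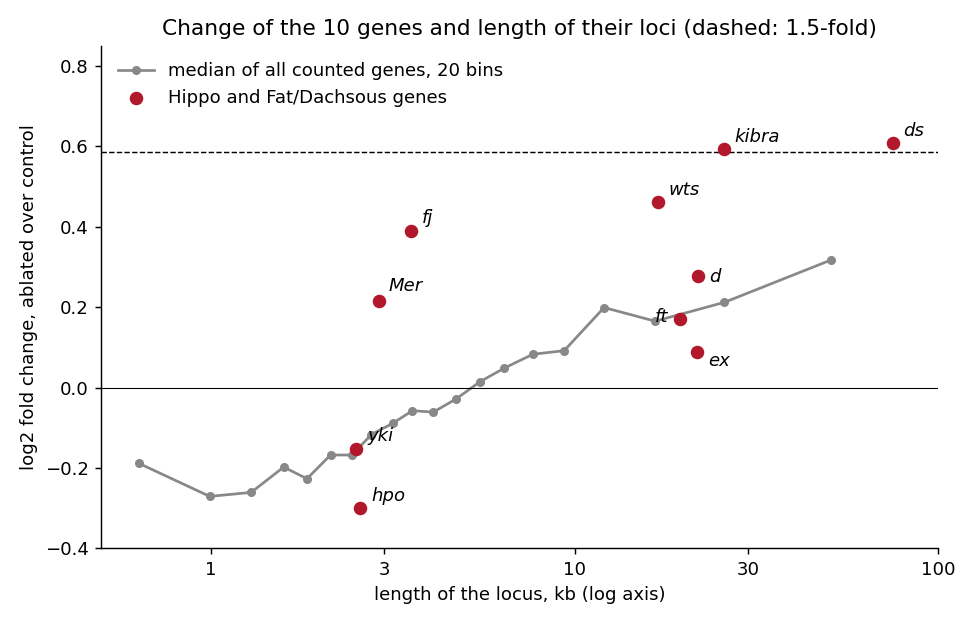
Log2 fold change of ablated over control against locus length in kb (log axis) for the 10 members (red, named), with the median of all counted genes in 20 bins of locus length (grey line). The grey line climbs between -0.27 and 0.32, with yki and ft on it, hpo and ex under it, and kibra, ds, wts, fj, Mer and d above it.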

How the data were processed

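Wing pouch cells marked by nub-GFP were sorted from ablated and mock-ablated discs, with 3 biological replicates for each group. The authors trimmed the reads, aligned them with TopHat2 (Galaxy version 0.6) to an NCBI build of genome release 5, and estimated FPKM with Cufflinks (Galaxy version 0.0.7), with corrections for bias and for multiply mapped reads. Cuffdiff scaled the libraries geometrically and combined the replicates, so the deposited FPKM are the authors' group values, 1 per gene and group. The same table holds the authors' own comparison of the groups (fold change, test statistic, p-value, q-value and significance), which was not used here. The FPKM carry no counts, and the read depth behind a gene is unknown. Replicate values are not part of it, so no spread, interval or p-value is given.

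Ablated FPKM were divided by control FPKM and the ratio put on the log2 scale, with no pseudocount, for genes above 0 in both groups and with a mean FPKM of at least 1. A gene was called at a ratio of 1.5-fold (0.58 on the log2 scale) in either direction, and the log2 threshold of 1.3 used in the study was a second rule. This replaces a test, and a call states a size only. The rule for named genes took the 10 members, every gene of the lists past 1.5-fold, and those that give a list's range. Other genes of the lists were named for their known role after their values were seen. Names were matched by symbol, or by a RefSeq synonym (release 6) held by 1 gene of the table. The members and lists were chosen with earlier results of these data known, from general knowledge of the pathway. Transcript lengths came from a release 6 annotation and were found for 98.2% of counted genes. Locus starts in the table are counted from 0 and were raised by 1: of 8923 loci that hold 1 gene, the span equalled the release 6 length in 1528 with this reading and in 149 without it.

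The alternatives were 3 other scalings, pseudocounts of 0.1 and 1, filters on mean FPKM, other thresholds, omission of genes at shared loci, and centring within bins of mean FPKM. Centring within bins of locus or transcript length was added after the values were seen. Each centring took the median of 1 of 20 equally filled bins from the log2 fold change. The code was tested on simulated data. Python 3.11.15, numpy 2.4.6, pandas 2.3.3 and matplotlib 3.10.9 were used.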

Additional observations from a re-analysis of the deposited data

How the results depend on the processing

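No paired analysis was possible because the table gives 1 value per group, and for the same reason no replicate could be left out. Thresholds change counts by their construction. At 2-fold, 0 members and 1 Yki target (7.14% of those counted) were called. Over all genes 606 were higher (7.21%) and 226 lower (2.69%). At the log2 threshold of 1.3 there were 0 members, 0 other pathway genes in either direction and 0 Yki targets, and 360 and 164 of all genes. With each group rescaled to the same FPKM sum, 4 members, 8 other pathway genes and 2169 of all genes were higher, and 321 of all genes were lower. Centring within bins of mean FPKM gave 4 higher and 2 lower pathway genes of 33, beside 11.6% higher and 8.43% lower over all genes. It called tsh, hth, par-1 and pyd, not Sik2 (0.53), with Schip1 (-0.62) beside lft as lower, and among members d (0.64) in place of kibra (0.47). With 1 FPKM added to both groups 1 member was higher, beside 11.3% of all genes. Without a filter 3267 of all genes were higher, and with a mean FPKM of at least 5 it was 527, with 659 lower and 1 higher pathway gene. Without genes that share a locus 1 pathway gene was higher, as were 792 of all genes, with 460 lower. Both changes of the filter and the omission of shared loci also change how many genes are counted. Their counts are therefore not comparable with those of the other settings, and no shares are given for them here. Centring within bins of locus length left 0 members and 2 Yki targets (vn and dm), beside 1240 higher genes of all, and within bins of transcript length 0 members and 2 Yki targets (vn and wg), beside 1292 higher and 478 lower genes. The shares of Yki targets and of all genes under both length centrings are given above with the target list. The causes of these shifts were not tested. No called log2 fold change of a listed gene changed sign. Over the listed genes and settings, 19 values of called genes fell under the threshold and 18 values of uncalled genes passed it. A further 48 values of uncalled genes changed sign, and 663 did none of these. Precision is limited by the lack of replicate values and of read counts.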
